A study of Drosophila melanogaster with 90 samples.

Results

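Osiris genes encode an insect-specific family of membrane-associated or secreted proteins, and most of the family lies side by side on chromosome arm 3R of Drosophila melanogaster. Of these, 9 genes (Osi6, Osi7, Osi9, Osi12, Osi14, Osi15, Osi18, Osi19 and Osi20) were followed over 90 microarrays of late pupae. The 9 were selected on measured values: they were named with earlier results of these same arrays in view, and the record does not say which comparison chose them. Their levels, differences and counts of calls are therefore given as a description, with no p-value. A member was a probe set that maps to exactly 1 of the 9 symbols; each of the 9 had 1 such probe set, among 11982 genes measured in this way. The other 15 Osiris genes on the array served as the rest of the family.

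In the pupa the epidermis builds the adult cuticle outside its apical membrane, first the thin outer layers and then the chitin layers beneath, and the tracheal tubes are lined in the same way. Osiris genes are expressed in epithelia while cuticle is laid down, and in the fly embryo several of them mark the maturing tracheal tubes. The 3R cluster also covers the Triplo-lethal locus, a region known for its dosage sensitivity. In the embryo Osi9, Osi15 and Osi19 act together in the maturation of the tracheal tubes. For the other 6 genes no role of their own is given here.

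All flies were of the wild-type strain Oregon R, with no transgene or mutation in any group. Animals entered a simulator at the start of metamorphosis and were taken as late pupae shortly before eclosion, and each array held RNA of several whole animals pooled. The random positioning machine (RPM), which turns the sample so that the gravity vector averages out, gave 0g and had an outside 1g control (20 arrays, 6 groups). The magnetic levitator gave 0g*, 1g* and 2g* positions, all inside a strong field, with outside 1g controls in closed and open containers (30 arrays, 10 groups). The large diameter centrifuge (LDC) gave 12g and 6g, with a rotational control (1g-rot) and an outside 1g control (40 arrays, 16 groups). Groups came with or without a cold step (ΔT) before the treatment, and in open containers or in closed ones that limit oxygen (↓O2); a group held 2 to 4 arrays. In the LDC, 21 arrays belonged to a parallel second experiment and 19 to the first. In open containers the 12g arrays were of the first experiment, the 6g arrays of the second and the 1g and 1g-rot arrays of both; in closed containers the 12g and 6g arrays were of the second experiment and the 1g and 1g-rot arrays of the first. There, a difference from 1g and a difference between experiments cannot be told apart.

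Levels are log2 values from robust multi-array averaging (RMA). The median of an array was 5.03 to 5.15 for the RPM, 4.99 to 5.11 for the magnet and 6.37 to 6.53 for the LDC. Levels were therefore compared only within a facility. A difference was called when its Benjamini-Hochberg adjusted p in limma was under 0.05 over all 18769 probe sets, in 1 fit per facility. Arrays of the same group correlated at 0.952 to 0.996 over all probe sets. Late pupal tissue was visible on every array, with the mean of 7 flight muscle genes between 12.1 and 14.1 and that of 5 photoreceptor genes between 7.31 and 10.3. In RNA of whole animals, fewer cells of a type and less RNA per cell cannot be told apart.

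Osi15, Osi18, Osi19, Osi20 and Osi9 behaved almost as 1 gene, and Osi6 and Osi14 followed another course, while Osi7 was as close to these 5 as to Osi12 over the group means. Osi15 had the widest range of group means among the 9, with 8.60 in the magnet and 8.87 in the LDC on the log2 scale, against a median range over all probe sets of 0.52 and 0.81. In the RPM the widest ranges were instead those of Osi6 (5.42) and Osi14 (4.95), against a median of 0.363. Osi7 moved least, with a range of 1.06 to 1.47. Over the 32 group means, each centred on its facility, Pearson r lay between 0.94 and 0.99 for the 10 pairs among Osi9, Osi15, Osi18, Osi19 and Osi20. It was 0.89 for Osi6 with Osi14, but 0.44 to 0.60 between the first 5 genes and either Osi6 or Osi14. Osi7 had r of 0.71 to 0.81 with the 5 genes and 0.78 with Osi12, and Osi12 had r of 0.41 to 0.58 with the 5. Groups of a facility were normalised and fitted together, so the points are not independent.

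In the deviations of single arrays from their group mean (90 arrays) r was 0.74 to 0.96 among Osi9, Osi15, Osi18, Osi19 and Osi20, 0.81 for Osi6 with Osi14 and 0.74 for Osi7 with Osi12. Between the 5 genes and Osi6 or Osi14 it was -0.04 to 0.20, between the 5 and Osi7 0.13 to 0.55 and between the 5 and Osi12 0.18 to 0.52. Osi7 was thus closer to Osi12 than to the 5 genes within groups, but not over the group means. The subsets were drawn after these values were seen and are used below only to order the description.

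**Figure D1:**
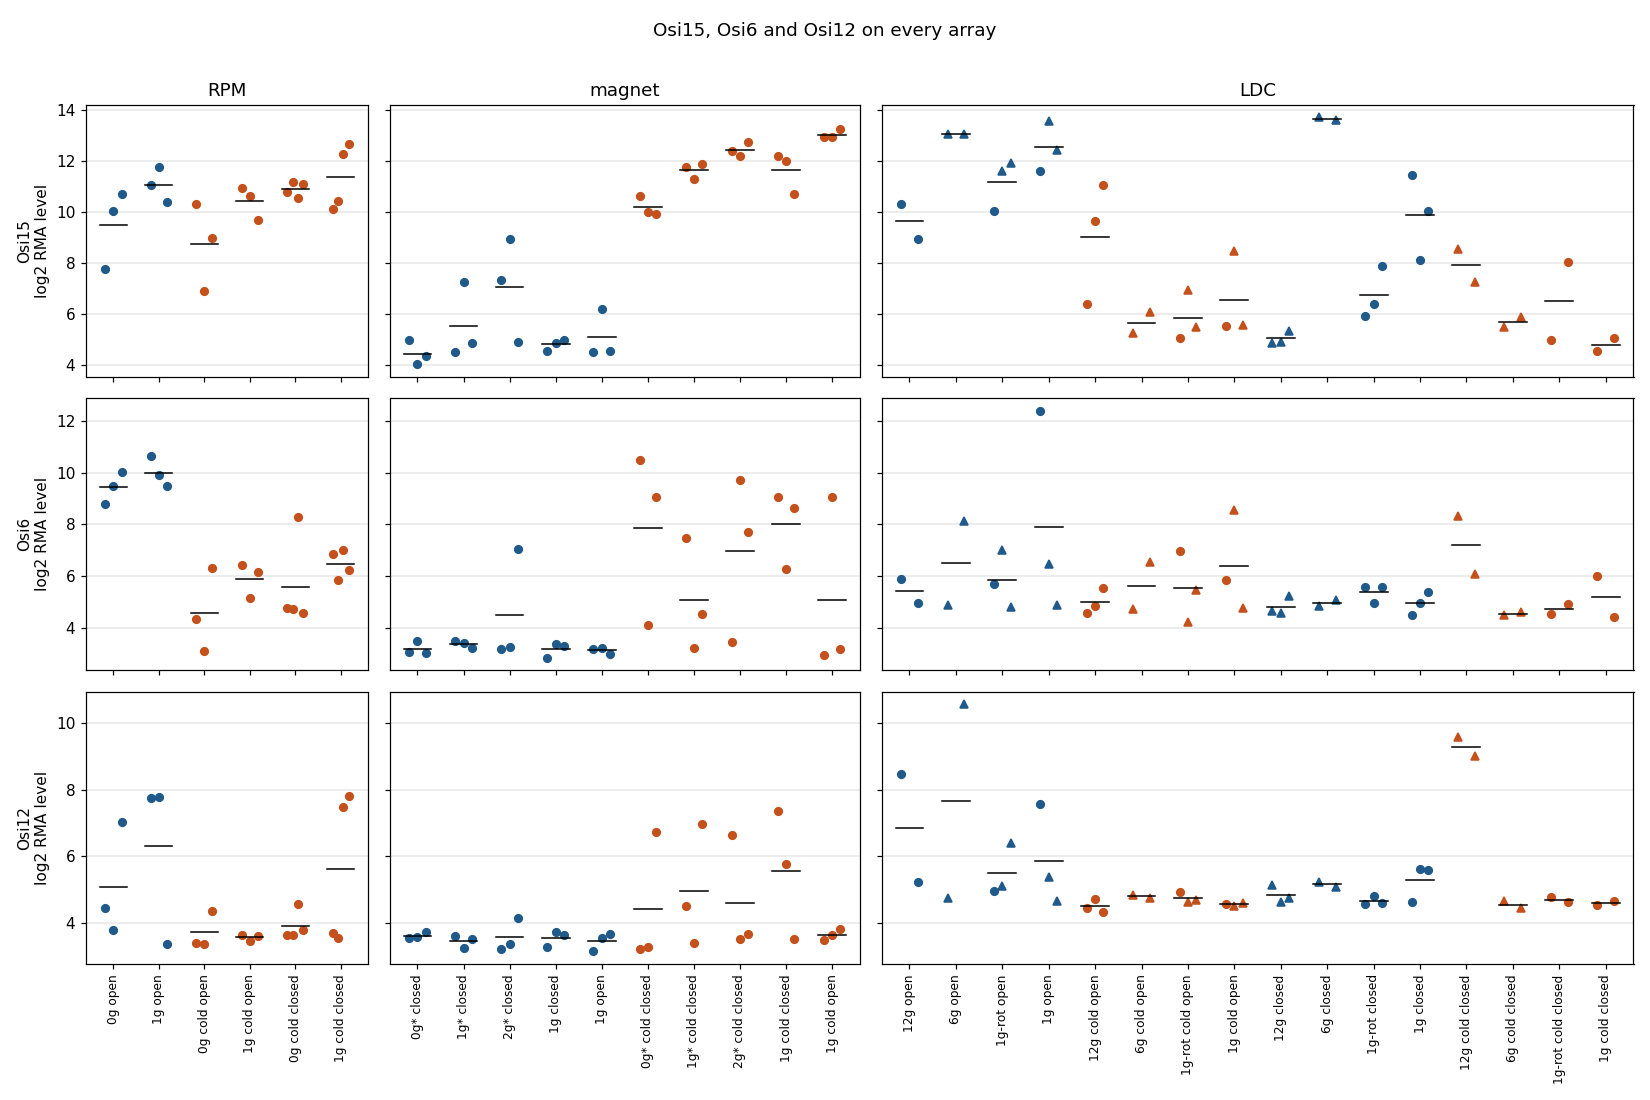
Log2 RMA level of Osi15, Osi6 and Osi12 (rows) on every array of the RPM, the magnet and the LDC (columns), by group; points are arrays (triangles: second experiment of the LDC; orange: cold step) and bars are group means. Osi15 lay at 4.02 to 8.95 on the magnet arrays without the cold step and at 9.93 to 13.24 on those with it, whereas Osi6 and Osi12 split within groups.

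The cold step alone, compared in 1g controls, was accompanied by differences of up to 7.97 on the log2 scale among the 9 genes, and for the subset around Osi15 its direction was opposite in the magnet and in the LDC. In open containers of the magnet facility, 6 of the 9 were called higher after the cold step and 0 lower, where 21.8% of all probe sets were called. Osi15 was at 4.50, 6.19 and 4.53 without the cold step and at 12.94, 12.94 and 13.24 with it. The groups lay far apart, by 7.97 ± 0.69 (SE) on the log2 scale, a 250-fold difference. Osi18 was at 4.51, 4.63 and 4.07 and then at 11.25, 10.86 and 12.10, a difference of 7.0 ± 0.37. Osi20 differed by 7.24 ± 0.51, Osi19 by 7.06 ± 0.50 and Osi9 by 6.17 ± 0.41, and the arrays of each of these 5 genes did not overlap. With Osi14, which was not called, 6 of the 9 lay higher on every cold array, as did 14.9% of all probe sets. Osi7 was called with a difference of 1.00 ± 0.35, although its arrays overlapped, and this call was lost without 1g open replicate 2 or 3 or without cold open replicate 3. Osi12 stayed low, at 3.16 to 3.67 without and 3.49 to 3.83 with the cold step.

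In closed containers of the same facility 7 of the 9 were called higher and 0 lower (16.9% of all probe sets). The differences were 6.84 ± 0.69 for Osi15, 5.92 ± 0.51 for Osi20, 5.26 ± 0.50 for Osi19, 4.90 ± 0.37 for Osi18 and 4.38 ± 0.41 for Osi9. Osi6 was at 2.84, 3.36 and 3.28 without the cold step and at 9.07, 6.29 and 8.65 with it, a difference of 4.84 ± 1.58, and Osi14 differed by 2.40 ± 0.73. No cold array of these 7 genes reached down to the arrays without the cold step, which held for 18.1% of all probe sets. The call of Osi6 was lost without any 1g closed array or without cold closed replicate 1 or 3, and that of Osi14 without 1g closed replicate 2 or 3 or without cold closed replicate 1 or 3; the 5 other calls were kept. In the open containers Osi6 had been uneven instead: after the cold step it was at 9.06 on replicate 2 and at 2.95 and 3.16 on the others.

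In the LDC the same contrast ran the other way. In open 1g containers 6 of the 9 were called lower after the cold step and 0 higher (16% of all probe sets). Osi15 was at 11.62, 13.56 and 12.43 without the cold step and at 5.53, 8.48 and 5.57 with it, 6.01 ± 0.97 lower. Osi19 was lower by 4.75 ± 0.84, Osi20 by 4.55 ± 0.77, Osi18 by 3.91 ± 0.70, Osi9 by 3.68 ± 0.57 and Osi7 by 1.24 ± 0.43. The arrays of these 6 genes, and those of Osi12, did not overlap, and 12.6% of all probe sets lay lower on every cold array. With arrays of the second experiment alone (2 against 2) the differences were -5.97 for Osi15 and -4.50 for Osi18, but -0.43 for Osi7, which was no longer called. Osi7 also lost its call without 1g open replicate 1 or without any cold open array, while the other 5 calls were kept. Osi6 also turned there, from -1.53 over all arrays to 0.99. In closed 1g containers, all of the first experiment, 1 of the 9 was called (1.41% of all probe sets): Osi15 was at 11.44, 8.10 and 10.05 without and at 4.53 and 5.05 with the cold step, 5.07 ± 1.08 lower. Osi9, Osi18, Osi19 and Osi20 were lower by 1.93 to 3.51, without overlap of the arrays and without a call, where the arrays of 34% of all probe sets did not overlap. The call of Osi15 was lost without 1g closed replicate 1 or 3 or without either of the 2 cold closed 1g arrays, and 3 members were called without 1g closed replicate 2 or when the experiment was a term of the fit.

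In the RPM the cold step was accompanied by another subset. Of the 9, 2 were called lower in open 1g controls and 0 higher (13.6% of all probe sets). Osi6 was at 10.64, 9.90 and 9.48 without the cold step and at 6.43, 5.14 and 6.15 with it, 4.10 ± 0.83 lower. Osi14 was at 9.70, 9.70 and 8.74 and then at 5.49, 5.05 and 5.50, 4.03 ± 0.48 lower, so that Osi6 was 17.1-fold and Osi14 16.4-fold lower. Osi15 was 10.39 to 11.77 without and 9.67 to 10.95 with the cold step, and its arrays overlapped. Without RPM 1g open replicate 3 the count of members called was 4. Beside these genes, 5 of 7 flight muscle and 2 of 5 photoreceptor genes were higher and 0 lower with the cold step, and their part in the result was not tested.

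Closing the container of 1g controls was accompanied by few calls. In the magnet facility 0 of the 9 were called without the cold step (0% of all probe sets; 917 at an unadjusted p under 0.05), and 2 were called lower after it (1.58%). Osi18 was at 11.25, 10.86 and 12.10 in open and at 9.53, 9.65 and 8.62 in closed containers, 2.14 ± 0.37 lower, and Osi9 was 1.74 ± 0.41 lower. The call of Osi9 was lost without cold closed replicate 2 or 3 or cold open replicate 3. In the RPM after the cold step 0 of the 9 were called (0.00533% of all probe sets), although all 9 means were higher in closed containers, by 0.58 to 2.06. In the LDC 0 of the 9 were called without the cold step (3.86%; 1 without 1g open replicate 3) and 0 after it (3.63%). Without the cold step Osi6 was at 12.40, 6.46 and 4.89 in open LDC 1g containers, and the 12.40 came from the only array of the first experiment. Against that array the closed 1g arrays of the first experiment were lower by 7.45 for Osi6 and by 4.16 for Osi14.

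**Figure D2:**
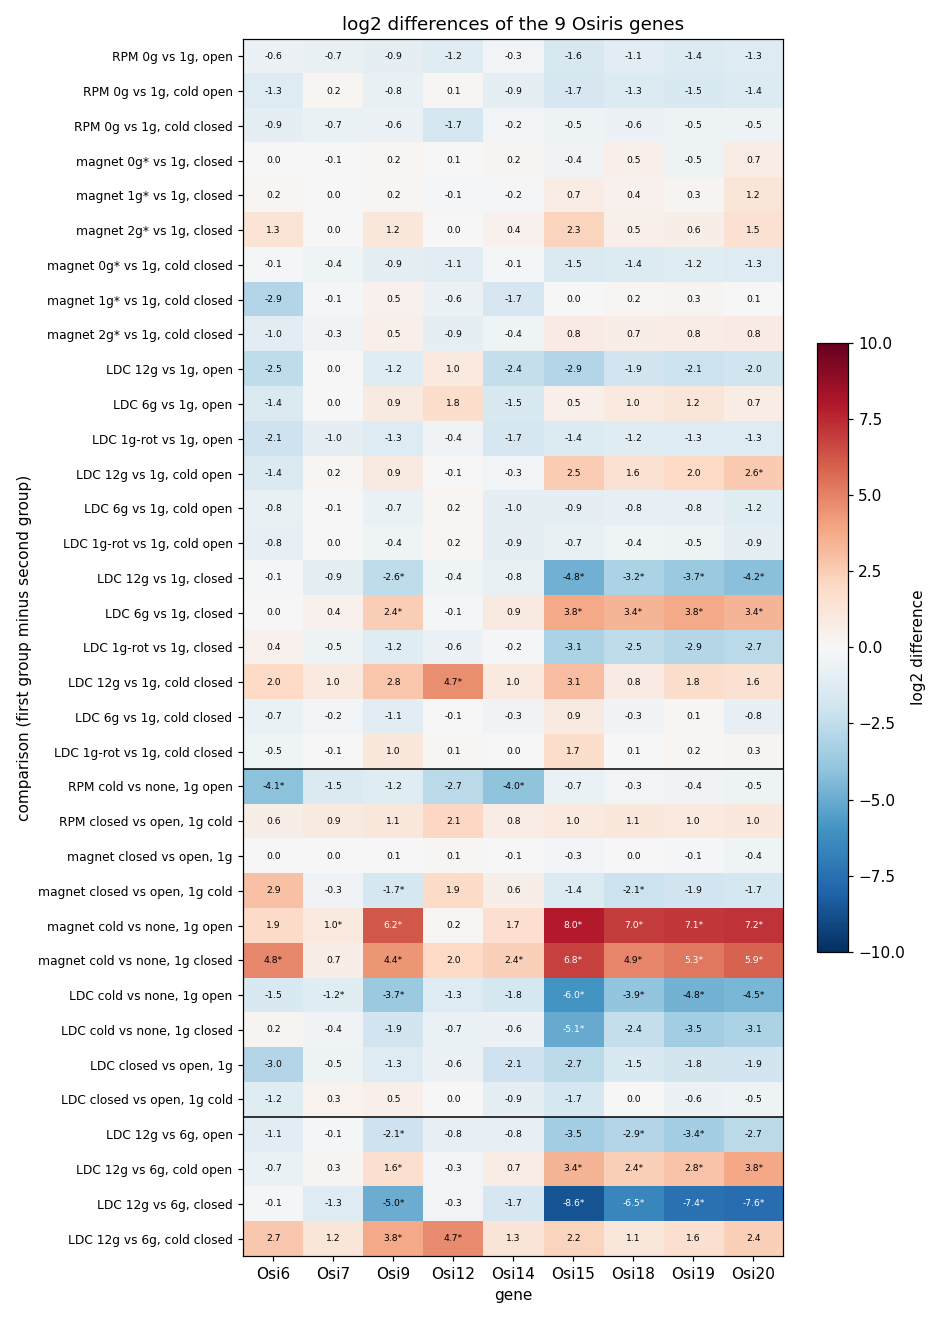
Log2 differences of the 9 genes (columns) in the 21 comparisons with 1g, the 10 of the cold step or the closed container in 1g controls and the 4 of 12g with 6g (rows, in that order); an asterisk marks an adjusted limma p under 0.05. Osi9, Osi15, Osi18, Osi19 and Osi20 carry most of the strong colours, red for the cold step in the magnet and blue in the LDC.

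Simulated weightlessness in the RPM was accompanied by no call of these genes. In open containers 0 of the 9 were called (0.00533% of all probe sets, with 2600 at an unadjusted p under 0.05), in cold open containers 0 (0%, with 284) and in cold closed containers 0 (0%, with 1807). All 9 means were lower at 0g than at 1g in open and in cold closed containers, and 7 of 9 in cold open containers. The median difference was -1.14, -1.32 and -0.58 in the 3 environments. Osi15 was at 7.75, 10.02 and 10.71 at 0g and at 11.07, 11.77 and 10.39 at 1g in open containers, so the arrays overlapped. The spread within groups was wide, with an SD of up to 2.54 (Osi12 at 1g open, with 7.76, 7.79 and 3.37). The mean of 7 larval tissue genes was 5.15 to 8.0 on the 0g open arrays and 5.12 to 5.56 on the 1g open arrays. The counts stayed at 0 when each RPM array was left out in turn.

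Inside the magnet 0 of the 9 were called against the closed 1g control in any of the 6 comparisons. The share of all probe sets called was 0% at 0g*, 0.0107% at 1g* and 0.416% at 2g* without the cold step (709, 807 and 1677 at an unadjusted p under 0.05). After the cold step it was 0.501% at 0g*, 0.0426% at 1g* and 0.101% at 2g* (1367, 502 and 646). Osi15 at 2g* without the cold step was at 7.31, 8.95 and 4.90, against 4.54, 4.87 and 4.98 in the control. Without 2g* closed replicate 3, the array with the lowest Osi15 level, 2 members were called higher. Without cold closed 1g replicate 3, 1 member was called at 0g*. With all arrays, the 9 means at 0g* after the cold step were all lower than in the closed 1g control. The differences ran from -1.46 to -0.08, with a median of -1.14. There 4 of the 9 lay lower on every 0g* array, as did 6.11% of all probe sets. After the cold step 5 of the 9 means were higher than in the control at 1g*, and 5 at 2g*.

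With the cold step the 0g* position stood below the other 2 positions in the field for the subset around Osi15. Against 2g*, at the same field strength, 3 of the 9 were called lower at 0g* (3.85% of all probe sets). Against 1g*, where the field was stronger, 1 was called lower (2.49%). Osi18 was at 8.04, 7.67 and 7.89 at 0g*, at 9.50, 9.31 and 9.67 at 1g* and at 9.94, 9.41 and 10.52 at 2g*. The 0g* arrays lay below all others, by 1.63 ± 0.37 from 1g* and by 2.09 ± 0.37 from 2g*. Osi20 was lower than at 2g* by 2.11 ± 0.51 and Osi19 by 2.00 ± 0.50, and none of the arrays of Osi9, Osi15, Osi18, Osi19 and Osi20 at 0g* overlapped with 1g* or 2g*. Of all probe sets, 8.81% lay lower on every 0g* array than at 1g* and 7.41% than at 2g*. The single call against 1g* was lost without 1g* replicate 1 or 3. The 3 calls against 2g* became 1 without 0g* replicate 2 or without 2g* replicate 3, and 2 without 0g* replicate 1 or 3 or without 2g* replicate 1, and 4 without 2g* replicate 2. Of 15 genes of the male accessory gland, a list described below, 4 were higher at 0g* than at either position. Their mean level per array was 4.82 to 5.45 at 0g*, 3.95 to 4.00 at 1g* and 3.93 to 4.45 at 2g*, and their part in the difference was not tested.

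In the LDC most calls against 1g came from closed containers. In open containers 0 of the 9 were called at 12g (0.149% of all probe sets), 0 at 6g (0%, with 1409 at an unadjusted p under 0.05) and 0 in the rotational control (0.016%). Osi15 was at 10.33 and 8.92 at 12g, at 13.07 and 13.08 at 6g, at 10.03, 11.62 and 11.91 in 1g-rot and at 11.62, 13.56 and 12.43 at 1g. With the cold step in open containers 1 member was called at 12g (10.8%), 0 at 6g (0.213%) and 0 in 1g-rot (0.0533%). The call was Osi20, at 8.05, 9.41 and 11.22 at 12g against 6.14, 8.52 and 6.13 at 1g, 2.63 ± 0.77 higher with overlapping arrays. It was lost without 12g replicate 2 or 3 or without 1g replicate 1 or 3. The count was 2 without 1g replicate 2, and 3 without 12g replicate 1 or when the fit held the experiment as a term.

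In closed containers 12g and 6g lay on opposite sides of 1g. At 12g, 5 of the 9 were called lower and 0 higher (17.5% of all probe sets), and at 6g the same 5 were called higher and 0 lower (4.42%). Osi15 was at 4.87, 4.90 and 5.32 at 12g, at 13.72 and 13.60 at 6g and at 11.44, 8.10 and 10.05 at 1g. It was thus 4.83 ± 0.97 lower at 12g and 3.80 ± 1.08 higher at 6g, with no overlap. Of all probe sets, 28.4% lay lower on every 12g array than at 1g, and 22.8% lay higher on every 6g array. Osi20 differed by -4.20 ± 0.77 and 3.38 ± 0.86, Osi19 by -3.68 ± 0.84 and 3.77 ± 0.93, Osi18 by -3.17 ± 0.70 and 3.38 ± 0.78, and Osi9 by -2.55 ± 0.57 and 2.44 ± 0.64. In 1g-rot 0 of the 9 were called (0%, with 316 probe sets at an unadjusted p under 0.05), although Osi15 was at 5.91, 6.38 and 7.88. Of the 9, 6 lay below every 1g array, these 5 genes among them, as did 5.53% of all probe sets. The 1g-rot differences from 1g were -3.14 for Osi15, -2.86 for Osi19, -2.72 for Osi20, -2.54 for Osi18 and -1.24 for Osi9. The 1g-rot and 1g arrays were of the same experiment, the first. Both 12g and 6g were compared here with 1g arrays of the other experiment. A fit that held the experiment as a term called 5 members at 12g and 0 at 6g. Its term was estimated only from the open 1g and 1g-rot groups, which held both experiments. The fit thus assumes the same shift in closed containers, which these arrays cannot check, so it does not separate g level from experiment there. Without either 6g array or without 1g replicate 2 the count at 6g was 0, and without 1g replicate 3 it was 1. At 12g the call of Osi19 was lost without 1g replicate 1.

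In cold closed containers 1 member was called at 12g (0.421% of all probe sets), 0 at 6g (6.4%) and 0 in 1g-rot (0.00533%, with 659 at an unadjusted p under 0.05). The call was Osi12, at 9.58 and 9.0 at 12g against 4.54 and 4.68 at 1g, 4.68 ± 1.04 higher. No other group of the LDC had Osi12 this high on all of its arrays; 6g open had it at 4.77 and 10.56. The call rested on 2 arrays in each group and was lost when any of the 4 was left out.

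The comparison of 12g with 6g in closed containers stays within the second experiment and gave the widest differences of these genes in the LDC. Without the cold step 5 of the 9 were lower at 12g and 0 higher (12.5% of all probe sets). Osi15 was lower by 8.63 ± 1.08, a 396-fold difference. Osi20 was at 5.16, 5.42 and 5.41 at 12g and at 12.99 and 12.83 at 6g, lower by 7.58 ± 0.86, and Osi19 and Osi18 were lower by 7.44 ± 0.93 and 6.55 ± 0.78. Osi9 was lower by 4.99 ± 0.64. The count stayed at 5 when each of the 5 arrays was left out in turn. Osi6 overlapped between the groups, at 4.56 to 5.23 at 12g and 4.85 to 5.07 at 6g.

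In cold closed containers the difference had the opposite sign. There 2 members were called higher at 12g and 0 lower (7.71% of all probe sets): Osi9 was at 9.03 and 9.06 at 12g and at 4.98 and 5.46 at 6g, 3.83 ± 0.70 higher, and Osi12 was 4.73 ± 1.04 higher. The arrays of all 9 genes lay higher at 12g than at 6g, with 2 arrays against 2, and so did 26.9% of all probe sets. Both calls were lost without 6g replicate 1, and that of Osi12 was lost without 12g replicate 1. In open containers, where 12g and 6g were of different experiments and the experiment cannot be told apart from the g level, 3 members were called lower at 12g without the cold step (13.2%). With the cold step 5 were called higher (43%). With the experiment as a term, estimated from the open 1g and 1g-rot groups and assumed equal at 12g and 6g, these counts were 0 and 4. The 3 calls became 0 without 12g replicate 2 or either 6g array, and the 5 calls became 1 without 12g replicate 3 or either 6g array. Over all probe sets the median difference in the open containers was 0.13 on the log2 scale.

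The effect of 12g against 1g was compared between environments in the same fit, again as a description of genes selected on these arrays. It was more positive after the cold step in open containers than without it for Osi15, by 5.41 ± 1.45, and for Osi20, by 4.62 ± 1.16, so that 2 of the 9 were called (3.35% of all probe sets). Against the open environment, 2 were called in cold closed containers (3.78%), Osi15 by 6.03 ± 1.61 and Osi9 by 3.96 ± 0.95, and 0 in closed containers (14.5%). In closed and cold closed containers the 12g arrays were of the second experiment and the 1g arrays of the first. There, a difference of effects and a difference between experiments cannot be told apart. The comparisons of effects were not refitted with arrays left out or with the experiment as a term.

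**Figure D3:**
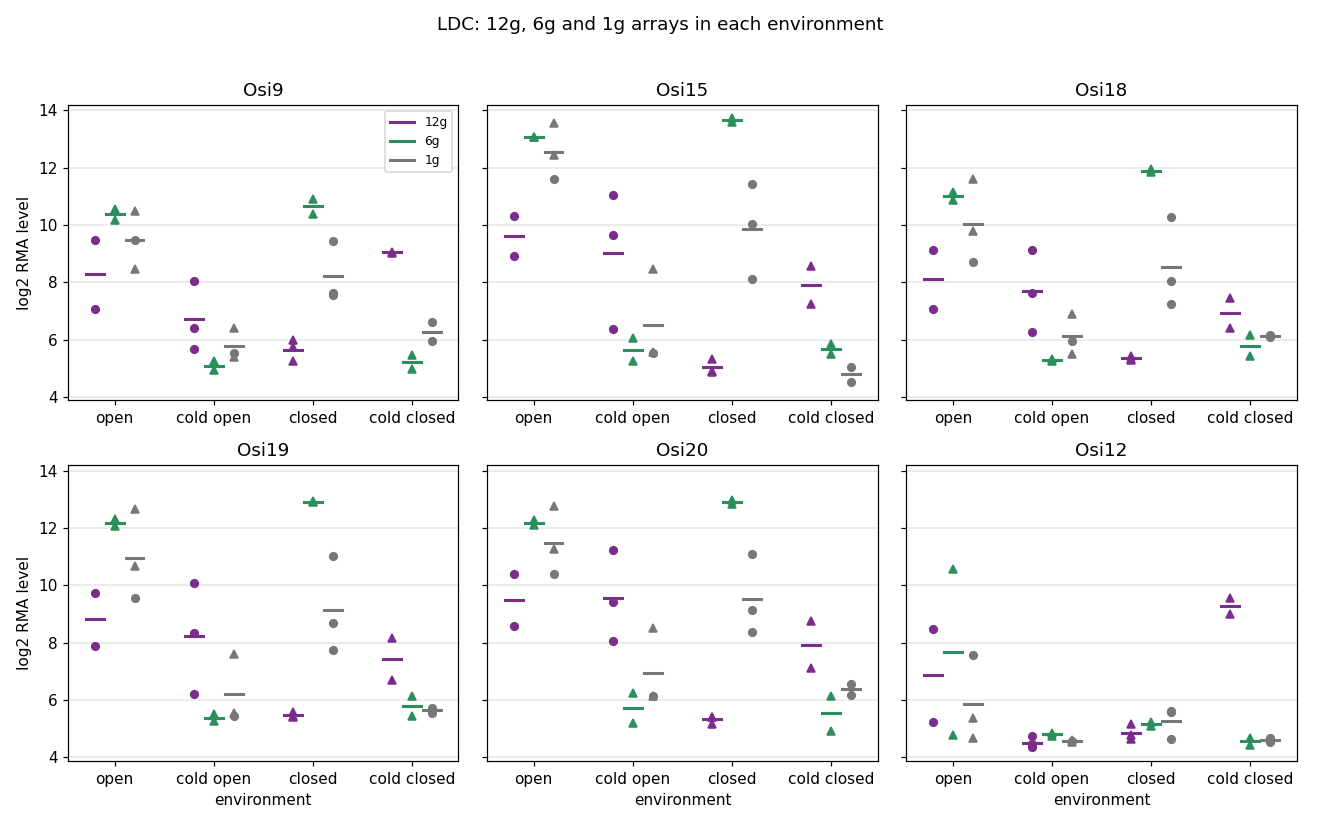
Log2 RMA level of Osi9, Osi15, Osi18, Osi19, Osi20 and Osi12 on the 12g, 6g and 1g arrays of the LDC in 4 environments; circles are arrays of the first and triangles of the second experiment, and bars are group means. In closed containers Osi15 lay between 4.87 and 5.32 at 12g and at 13.60 and 13.72 at 6g, and in cold closed containers the order was turned, with Osi12 high at 12g only.

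Most of the other 15 genes had narrower ranges than the members. The members were selected on values of these same arrays, so this can follow from the selection and is a description only. The widest among them were those of Osi2, at 3.49 to 3.89 over the 3 facilities, and of Osi3, up to 2.47. Along 3R the genes run Osi1, Osi24, Osi2 to Osi20, with Osi22 and Osi23 elsewhere on the arm and Osi21 on 2L. The members are therefore not a contiguous block: Osi8, Osi10b, Osi11, Osi13, Osi16 and Osi17 lie between them. Of those, Osi16 had ranges of group means of 0.16 to 0.38 and Osi10b of 0.23 to 0.76, although Osi16 lies next to Osi15 in this order. The group means of both lay over the array median in 0 of 6 RPM, 0 of 10 magnet and 0 of 16 LDC groups. The same held for Osi1, Osi5, Osi11, Osi13 and Osi23. Narrow ranges of such genes may reflect low signal, which was not tested. Osi24, Osi8, Osi2 and Osi17 followed the mean of the 9 members with r of 0.88, 0.82, 0.75 and 0.75 over the 32 group means.

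**Figure D4:**
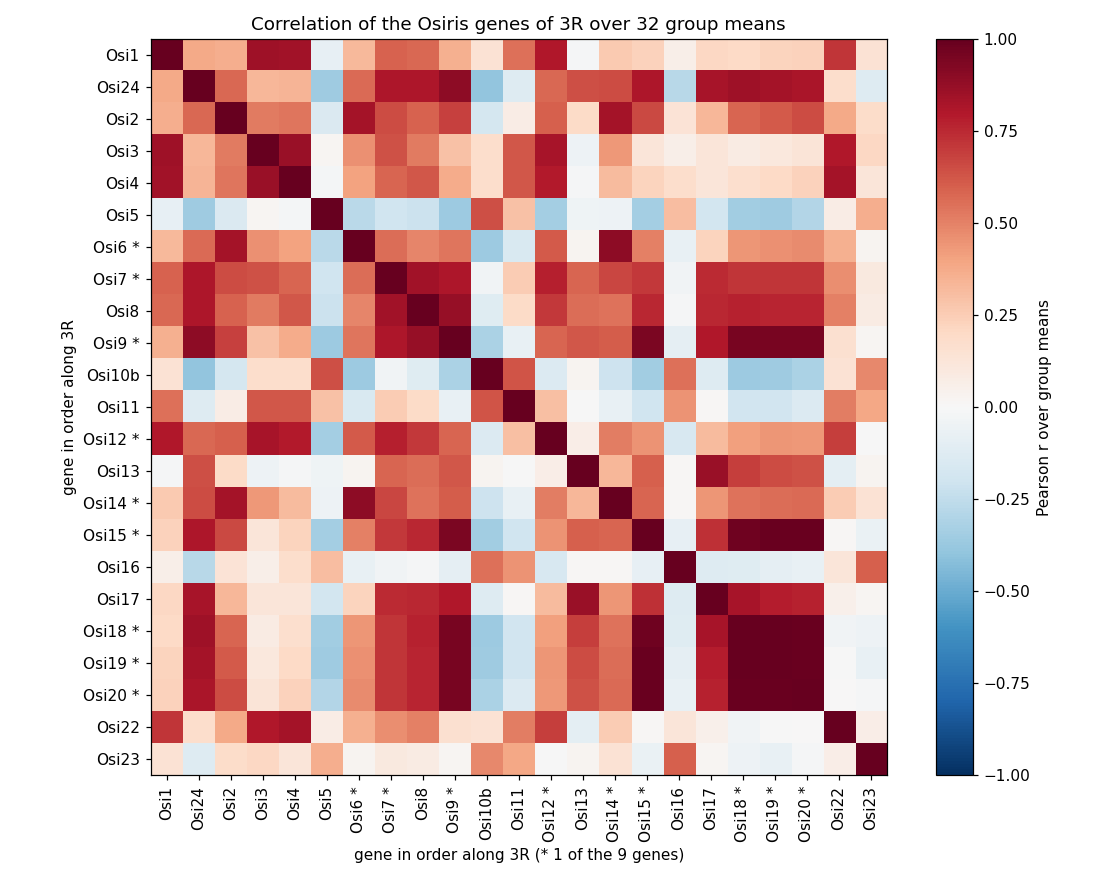
Pearson r over the 32 group means, centred within facilities, for the 23 Osiris genes of 3R in their order along the arm; asterisks mark the 9 genes. Osi9, Osi15, Osi18, Osi19 and Osi20 form the reddest block although Osi10b, Osi11, Osi13, Osi16 and Osi17 lie between them.

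For the cold step in 1g controls, 4 of the 15 other Osiris genes rose in open magnet containers (26.7%, against 21.8% of all probe sets called), 3 rose in closed ones (20%, against 16.9%) and 5 fell in open LDC containers (33.3%, against 16%). The shares in the magnet lay near those of all probe sets. Osi17 was at 4.39, 4.40 and 4.49 without the cold step and at 6.16, 5.64 and 6.79 with it in the open magnet containers, a rise of 1.77 ± 0.22 (limma adjusted p = 8.23e-07). In the open LDC containers Osi8 was at 6.17, 6.22 and 5.98 and then at 5.32, 5.02 and 4.85, and it fell by 1.06 ± 0.18 (limma adjusted p = 0.00013). Osi24 rose by 1.38 ± 0.25 in the open magnet containers (limma adjusted p = 0.000144) and fell by 0.59 ± 0.16 in the LDC (limma adjusted p = 0.0133). Osi13 rose by 0.62 ± 0.19 and fell by 0.47 ± 0.12, and Osi8 rose by 0.82 ± 0.22 in the magnet, while Osi10b fell by 0.45 ± 0.16 in the LDC.

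Osi2 followed Osi6 and Osi14 more closely (r = 0.83 with each over the group means) than Osi15 (0.66). In the RPM it was at 10.07, 10.75 and 9.37 without the cold step and at 7.24, 6.61 and 7.88 with it, and it fell by 2.82 ± 0.71 (limma adjusted p = 0.0151); the call was lost without 1g open replicate 1 or 2 or without cold open replicate 2. In closed magnet containers it rose by 3.70 ± 0.64 (limma adjusted p = 0.000215), beside Osi8 and Osi24. Against 1g, 0 of the 15 were called in the RPM and the magnet, and 2 were called in the LDC, Osi13 and Osi17. Both were higher at 6g in closed containers, by 0.70 ± 0.14 (limma adjusted p = 0.004) and 0.73 ± 0.18 (limma adjusted p = 0.0211), where 4.42% of all probe sets were called. At least 1 of these 2 calls was lost without either 6g array or without 1g replicate 2 or 3. Between 12g and 6g in closed containers 4 fell at 12g: Osi17 by 1.18 ± 0.18, Osi8 by 0.90 ± 0.20, Osi13 by 0.90 ± 0.14 and Osi24 by 0.80 ± 0.18. The share of all probe sets called was 12.5% there and 7.71% in cold closed containers. In cold closed containers 5 rose at 12g (Osi3, Osi4, Osi8, Osi11 and Osi22), among them Osi3 by 2.23 ± 0.53 (limma adjusted p = 0.00969) and Osi4 by 1.53 ± 0.33 (limma adjusted p = 0.00485); all 5 calls were lost without 12g replicate 2 or 6g replicate 1. In open containers, where 13.2% of all probe sets were called, Osi11 was higher and Osi24 lower at 12g, and at least 1 of these 2 calls was lost when any of the 4 arrays was left out. In cold open containers, where 43% were called, Osi2, Osi5 and Osi10b were higher. The count of these calls was 0 without either 6g array, 1 without 12g replicate 1 or 2 and 5 without 12g replicate 3.

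Other genes of the cuticle moved with these changes in part. The lists here and below were chosen with earlier results of these data known. The genes named from them are among those with the smallest p of their list in the comparison. Their p-values are therefore a description and give no separate support. The share of all probe sets called was 21.8% for the cold step in open magnet containers and 16% in open LDC containers. Between 12g and 6g in closed containers it was 12.5%. Of 105 genes of cuticle proteins, 44 rose and 11 fell with the cold step in open magnet containers, and 3 rose and 42 fell in open LDC containers. Between 12g and 6g in closed containers 3 rose and 34 fell, among them Cpr66Cb by 5.04 ± 0.56 (limma adjusted p = 5.58e-07) and Cpr64Ab by 6.31 ± 0.71 (limma adjusted p = 6.23e-07). The median log2 difference of the cuticle protein list was 0.49, -0.51 and -0.48 in these 3 comparisons, against -0.05, -0.04 and -0.05 over all probe sets. Of 17 genes of chitin synthesis and modification, 14 rose and 0 fell with the cold step in open magnet containers, for example Cda4, a chitin deacetylase, by 2.72 ± 0.21 (limma adjusted p = 3.75e-10). In open LDC containers 1 rose and 4 fell. The median of the chitin list was 1.54 in the magnet and 0.02 in the LDC.

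Genes of the apical matrix, zona pellucida proteins that shape the surface below the new cuticle, were called in the comparisons of Osi6, Osi14 and Osi12. They were not particular to these. Their mean level per array was 6.34 to 6.47 without and 6.61 to 6.97 with the cold step in open magnet 1g controls. In open LDC 1g controls it was 7.77 to 8.44 without and 6.98 to 7.565 with it. Of 8, 0 rose and 3 fell in the RPM with the cold step (13.6% of all probe sets called), with a median of -0.63. Here tyn fell by 3.04 ± 0.53 (limma adjusted p = 0.00234), dyl fell by 2.22 ± 0.50 and neo fell by 2.17 ± 0.68. Between 12g and 6g in cold closed containers 5 rose and 0 fell (7.71% of all probe sets called), with a median of 1.40. Here neo was higher by 3.27 ± 0.57 (limma adjusted p = 0.00114) and tyn by 3.23 ± 0.62. Of 9 genes of tanning, 6 rose and 0 fell with the cold step in open magnet containers (21.8% of all probe sets called), with a median of 0.67. In the open LDC containers 1 rose and 4 fell (16%), with a median of -0.67.

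Genes of other late adult tissues were called mostly with the opposite sign. The share of all probe sets called was 21.8% for the cold step in open magnet containers, 16% in open LDC containers and 13.6% in the RPM. Between 12g and 6g it was 12.5% in closed and 7.71% in cold closed containers. Of 15 genes in the accessory gland list, taken by the prefix Acp (seminal fluid proteins, and with them the acid phosphatase gene Acph-1), 1 rose and 14 fell with the cold step in open magnet containers. Their mean level per array was 6.14 to 7.78 without and 3.87 to 4.09 with the cold step. In open LDC containers 13 rose and 0 fell, from 5.16 to 5.81 without up to 8.81 to 9.41 with the cold step. Between 12g and 6g in closed containers 12 were higher at 12g (7.84 to 9.32 against 5.32 to 5.40), and in cold closed containers 11 were lower at 12g (5.89 to 6.83 against 9.04 to 10.3). The median of the list was -1.95, 4.28, 3.52 and -3.80 in these 4 comparisons, and in the RPM 0 of the 15 were called with the cold step. Of 5 photoreceptor genes, 1 rose and 3 fell in the open magnet containers and 3 rose and 1 fell in the open LDC containers. Among them trpl, a channel gene, fell by 3.30 ± 0.25 with the cold step in the open magnet containers (limma adjusted p = 4.32e-10) and rose by 1.33 ± 0.28 in the open LDC containers (limma adjusted p = 0.00109). In each of these 4 comparisons the median of the accessory gland list had the opposite sign to Osi15, and the part of these tissues in the differences of the Osiris genes was not tested. Of 5 tracheal genes, 3 of them also in the chitin list, 5 rose in the open magnet containers and 2 fell in the open LDC containers.

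Over the 32 group means, the 6 genes most like the mean of the 9 members were Cpr66Cb (r = 0.97), Vajk4 (0.96), Cpr49Ah (0.96), Vajk1 (0.96), Cpr78Cc (0.96) and CG14147 (0.96), of which the 3 Cpr genes encode chitin-binding cuticle proteins. The pattern of Osi6 and Osi14 was most like that of CG9411 (0.97), that of Osi12 like those of CG42331 (0.91) and dy (0.91), a zona pellucida protein of the wing surface, and that of Osi7 like that of CG6280 (0.90). These likenesses are descriptions over group means, which were normalised and centred within facilities and are not independent.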

How the data were processed

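The deposited values were log2 expression values, which the authors made by RMA from Affymetrix Drosophila Genome 2 arrays (RMA and limma are named in the submitters' processing notes; versions and settings are not given in the sources used here). Of 18952 probe sets in the table, the 183 controls were not used, and 13647 of the rest carried 1 gene symbol, 13544 of them updated through gene identifiers to RefSeq symbols. Groups followed the sample labels, and the LDC experiment followed the study's array table. Group means were fitted for each facility with limma 3.58.1 in R 4.3.3 (lmFit, eBayes), with Benjamini-Hochberg adjustment over 18769 probe sets in each comparison. Arrays of a group are biological replicates per the labels, each a pool of animals; separate cultures are not named, so p-values measure the spread between these pools. Files of array values give no depth, and the number of arrays limits precision. The fit was tested on simulated data.

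The members and gene lists were chosen with earlier results of these data known. Named genes were all members, called Osiris genes, the 6 most similar genes and up to 3 per list. Lists were matched by symbol, and those with a probe set of 1 symbol were kept (7 of 9 flight muscle and 5 of 10 photoreceptor genes). Of 22 comparisons with 3 or more arrays of like number in both groups, the correlation of their deviations from the group means was over 0.1 for every pair in 2, both in open LDC containers: 1g-rot with 1g (0.21 to 0.58) and the cold step at 1g (0.25 to 0.32). There number 1 is the first experiment and numbers 2 and 3 are the second, and a replicate block left the calls of Osiris genes as they were. Alternatives were the unadjusted p under 0.001, fits of only the compared groups, the replicate block, quantile normalization again, median centring, a filter on the dimmest 25% of probe sets, eBayes with trend and robust, a term for or only 1 LDC experiment, and each array left out. Figures used Python 3.11.15 and matplotlib 3.10.9.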

Additional observations from a re-analysis of the deposited data

Results flagged for a closer look

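Osi6 on replicate 3 of the RPM 0g cold closed group stood apart from the other arrays of its group, at 8.29 against 4.75, 4.73 and 4.59, and the gap took 0.957 of the range; among 18 gene and group pairs with 4 arrays this was the only such case, and chance marks about 5% of groups.

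The effect of 12g against 1g in the LDC was compared between environments. For 3 genes outside the 9 the difference of the effects was called in limma. It was higher in cold closed than in open containers for Osi8 (1.20 on the log2 scale). It was lower in closed than in open containers for Osi11 (-0.99) and Osi21 (-0.62). Of the 15 other Osiris genes, 1 was thus called in the first comparison, where 3.78% of all probe sets were called. In the second 2 were called, where the share of all probe sets was 14.5%. For the members, which were chosen with results of these arrays known, the same differences are a description: 5.41 for Osi15 and 4.62 for Osi20 in cold open against open containers, and 6.03 for Osi15 and 3.96 for Osi9 in cold closed against open containers. The 12g arrays of closed containers were of the second experiment and those of open containers of the first. The 1g arrays of closed containers were of the first experiment. For closed and cold closed containers, the difference of effects therefore cannot be told apart from a difference between experiments.

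The cold step in 1g controls ran in opposite directions in the magnet and the LDC, with no array of one condition reaching the other in either facility; the difference between facilities was not tested, since they were fitted apart. The magnet difference minus the LDC difference was 13.98 for Osi15, 11.81 for Osi19, 11.79 for Osi20, 10.91 for Osi18 and 9.86 for Osi9 in open containers. In closed containers it was 11.92 for Osi15, 9.07 for Osi20, 8.77 for Osi19, 7.29 for Osi18, 6.31 for Osi9 and 2.99 for Osi14. Of these, only Osi15 was called in closed LDC containers, and the LDC difference of Osi14 was -0.59.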

How the results depend on the processing

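Counts of calls are summed over the comparisons of a facility. With all arrays they were 12 of 108 for members and 2 of 180 for other Osiris genes against 1g in the LDC. For the cold step or the container they were 24 and 15, over 9 members and 15 other genes. Against 1g in the RPM and the magnet they were 0. The comparisons of 12g with 6g and of positions in the field held 19 and 14 more, which are not in the sums below. The members were selected on these arrays, so a higher count among them can follow from the selection. At an unadjusted p under 0.001 the magnet gave 1 member and the LDC 7 other genes. With only the groups compared the other genes were 5 in the LDC and 8 for the cold step or container. With the replicate block members stayed at 12 and 24 and the other genes were 4 in the LDC, while quantile normalization again gave 5. A term for the second experiment, estimated from the open 1g and 1g-rot groups alone, left 9 members and 1 other gene in the LDC. Arrays of 1 experiment only, where 12g and 6g in closed containers have no comparison with 1g, left 2 and 0. Leaving out each array in turn gave 0 to 2 members and 0 to 1 other genes in the magnet, 7 to 14 members and 0 to 6 other genes in the LDC, and 22 to 27 members and 13 to 16 other genes for the cold step or container. The lowest LDC count, 7, came without LDC 6g closed replicate 1 or 2 or LDC 1g closed replicate 2. No called difference of the 55 among 369 turned its sign under these alternatives. Each Osiris gene had 1 probe set, so a mean over probe sets is the same value. The replicate numbers tracked the LDC experiment in 2 comparisons, where the block changed no call of an Osiris gene; elsewhere they only name the arrays. Between 12g and 6g, the block gave 4 members in place of 3 in open containers and 6 other Osiris genes in place of 3 in cold open ones. Group sizes of 2 to 4 and a wide spread within groups limit what can be called.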
